A study of Bos taurus with 8 samples.

Results

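The genes described here are PPARG and 9 other genes of PPAR signalling and fatty acid handling (PPARD, RXRA, FABP3, FABP5, FABP7, CD36, PLIN2, LPL and SCD), measured in stem-like cells grown from bovine embryos (eSLCs) and in somatic cells (SCs). A probe was taken for a gene when its RefSeq accession, without the version, belongs to that bovine gene. By this rule 9 of the 10 genes had a probe, with 26 probes among them, of 12603 genes and 43653 probes on the array. No probe matched RXRA, so it was not analysed here.

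Total RNA from 8 cultures was hybridised in a single colour to 8 Agilent bovine oligonucleotide arrays. The 6 eSLC lines came from HanWoo (Korean native cattle) blastocysts of 3 kinds, with 2 lines each. IVP-eSLCs came from embryos produced in vitro by fertilisation (I2 at passage 35, I9 at passage 30), NT-eSLCs from embryos made by somatic cell nuclear transfer with donor cells from ear skin (N2 at passage 36, N7 at passage 30), and PA-eSLCs from parthenogenetic embryos, which have no paternal genome (P1 at passage 31, P4 at passage 36). All eSLCs were grown on inactivated mouse STO feeder cells in 3i medium, a serum-free N2 and B27 medium with the inhibitors PD184352 (of MEK), SU5402 (of FGF receptors) and CHIR99021 (of GSK3), and each line goes back to a colony from a single blastocyst. The SCs, also labelled HanWoo, were grown in DMEM with serum and sampled at passages 5 and 10. Cell kind, medium, feeder layer and passage therefore changed together between eSLCs and SCs and cannot be told apart, and nothing states whether the SC arrays came from separate animals, so p-values measure only the spread between these samples.

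PPARG is a nuclear receptor that binds DNA as a heterodimer with RXRA, is activated by fatty acids and their derivatives, and is best known as the regulator of adipocyte differentiation. It also acts in trophoblast, and PPARD, its ubiquitous relative, shares many of its target genes. Fatty acids reach cells through lipoprotein lipolysis (LPL) and membrane transport (CD36), are carried in the cytoplasm by fatty acid binding proteins (FABP3, FABP5, FABP7), are desaturated by SCD, and are stored in lipid droplets coated by perilipins such as PLIN2.

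Values are background-subtracted signals divided by the 75th percentile of their array and multiplied by 1000, so that 1000 is the signal of a probe at that percentile. The lowest signal still measurable on every array, 13.3 on this scale, served as a common floor. The lowest probe well above background lay 75.3 to 136-fold under the 75th percentile, and 71.2% to 76.7% of spots were well above background. The eSLC arrays correlated with each other at r = 0.947 to 0.994 over the 10958 genes tested and with the SC arrays at r = 0.763 to 0.798. A gene was called when limma, fitted over all genes tested, gave an adjusted p under 0.05 and a difference of at least 2-fold. In bulk RNA, fewer cells of a type and less RNA per cell cannot be told apart.

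The labels were set against marker genes. In eSLCs 7 of 8 tested trophectoderm markers were called higher, with CDX2 (not well above background in SCs) at least 675-fold higher and GATA3 at a log2 difference of 9.76, and their summed level was 336200 to 870300 in the eSLC lines against 13270 and 13040 in the SCs. Fibroblast markers were the reverse, with 7 of 8 called lower and a summed level of 5362 to 10560 in eSLCs against 503600 and 604100 in SCs. Of pluripotency genes, POU5F1 was 898.1 in N7 and 30.7 to 101 in the other lines against 16.3 and 26.0 in SCs. NANOG was 5.80 (P4) to 35.4 in eSLCs against 6.96 and 2.48 in SCs. It was well above background in 5 eSLC lines and in neither SC array. SOX2 was lower in the 6 lines (46.8 to 99.4) than in SCs (458.6 and 550.8). Line N7 stood apart by hypoblast markers, with HNF4A at 9022 there and at most 23.4 in the other lines, APOA1 at 112600 against 1097 to 6823, and GATA4 at 2918 against 23.1 to 179.8. The other 2 hypoblast markers did not set N7 apart, with SOX17 at 2664 (1908 to 2946 in the other lines) and TTR at 22.2 (22.7 to 33.2). The part of these differences in the values below was not tested.

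Across the 9 genes, FABP5, LPL and SCD were called higher in eSLCs than in SCs and PLIN2 was called lower, while PPARG, PPARD, FABP3, FABP7 and CD36 were not called. Thus 3 genes were called higher and 1 lower of 9 tested. Over all genes tested, 19.7% were called higher and 15.7% lower, 35.4% in all. The lowest eSLC line lay above both SC arrays, or the highest below them, for the same 4 genes, and this held for 34% of all genes in the higher direction and 23.6% in the lower. The median log2 difference was 0.94 over the 9 genes and 0.23 over all genes tested.

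**Figure D1:**
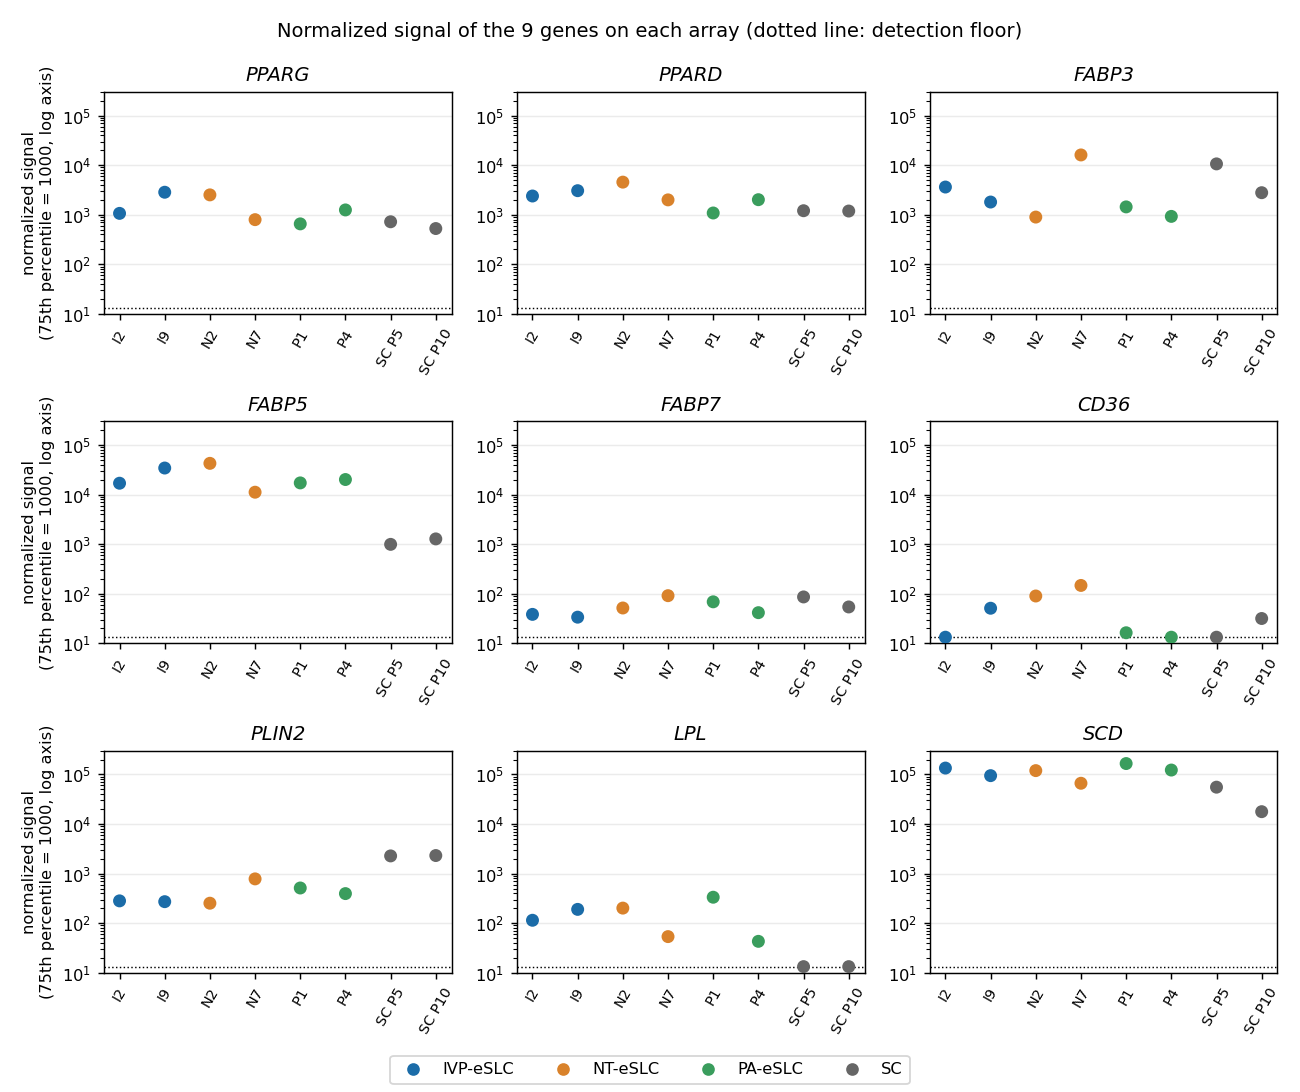
Each panel plots the normalized signal of a gene's brightest probe (log axis, 75th percentile of the array = 1000) on the 8 arrays, coloured by group, with signals under the floor of 13.3 drawn at the floor. FABP5 lies above 11000 in the 6 eSLC lines and under 1300 in both SC arrays, PLIN2 is reversed, and PPARG in line P1 falls under its signal in SC P5.

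Among the receptors, PPARG was measured well above background on all 8 arrays. Its normalized signal was 1067 in I2, 2847 in I9, 2518 in N2, 797.1 in N7, 655 in P1 and 1252 in P4, against 722.2 (SC P5) and 527.5 (SC P10). Lines I9 and N2 were high, and the groups overlapped because P1 lay between the SC arrays. The log2 difference between eSLCs and SCs was 1.08 (SE 0.59, adjusted p = 0.178), a 2.12-fold difference that was not called. A second PPARG probe put the 8 arrays in the same order apart from the pair P1 and SC P5 and gave a log2 difference of 1.21 (SE 0.56, adjusted p = 0.132), with each eSLC line above both SC arrays. Within the slide that held I2, I9, N7 and SC P5 the log2 difference was 0.89, and within the slide that held N2, P1, P4 and SC P10 it was 1.27.

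By origin, the geometric mean signal of PPARG was 1743 in IVP-eSLCs, 1417 in NT-eSLCs, 905.6 in PA-eSLCs and 617.3 in SCs. No neighbouring groups in this order differed beyond their spread, with a log2 difference of -0.30 between NT- and IVP-eSLCs (adjusted p = 1), -0.65 between PA- and NT-eSLCs (adjusted p = 0.748) and 0.55 between PA-eSLCs and SCs (adjusted p = 0.566). The lines within an origin lay 2.67-fold (IVP), 3.16-fold (NT) and 1.91-fold (PA) apart, and the SC arrays 1.37-fold. Both IVP lines and both NT lines lay above both SC arrays, as did 44.9% and 40.6% of all genes, without a call for PPARG in either group. For the brighter probe, the order of the origins rests on the scanner output. In the deposited series matrix, scaled the same way, this probe read 1048, 708.8, 1883, 562.9, 2575 and 3749 in I2, I9, N2, N7, P1 and P4, so that the PA lines were highest. The second probe read 715.4, 2306, 1120, 770.6, 419.9 and 663 there, with both PA lines under the IVP and NT lines. It read highest in I9 in both tables.

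**Figure D2:**
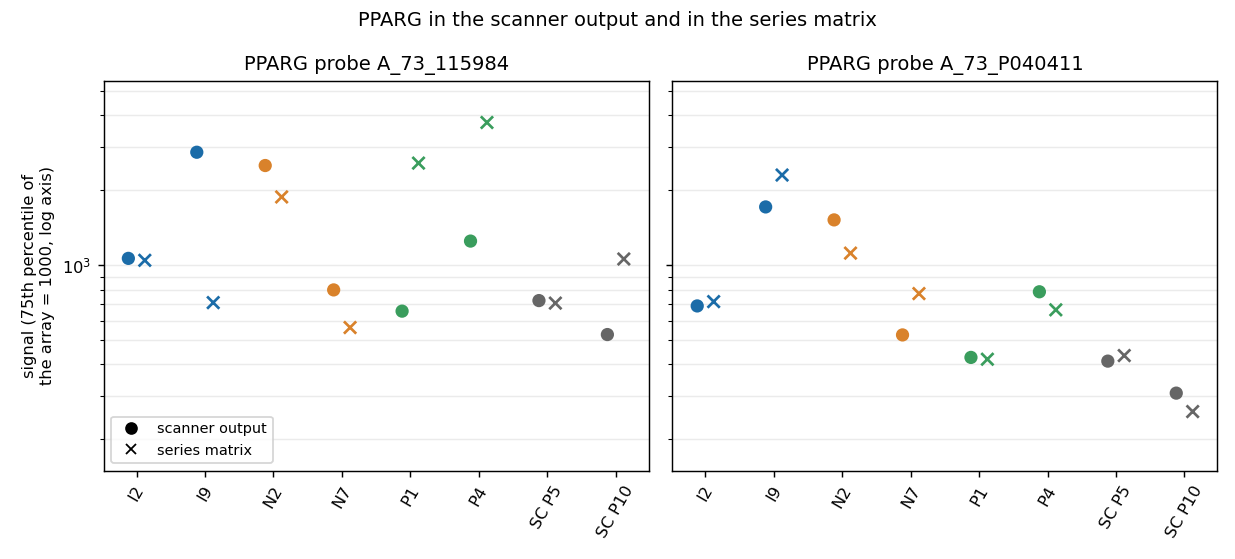
The signal of both PPARG probes on the 8 arrays (log axis, 75th percentile of the array = 1000) is drawn from the scanner output (circles) and from the deposited series matrix (crosses). For the brighter probe, on the left, the tables differ most in I9, P1, P4 and SC P10, and for the second probe, on the right, they run together.

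PPARD, the receptor expressed in most tissues, read 2390 in I2, 3061 in I9, 4552 in N2, 1997 in N7, 1086 in P1 and 2015 in P4, against 1207 and 1189 in SC P5 and SC P10. Apart from P1, the eSLC lines lay above both SC arrays, which differed by 1.01-fold. The log2 difference of 0.94 (SE 0.38, adjusted p = 0.0925) was not called. It was called once, without N7 (1.14, adjusted p = 0.0312). In NT-eSLCs the log2 difference from SCs was 1.33 (adjusted p = 0.0756), in IVP-eSLCs 1.17 (adjusted p = 0.0995) and in PA-eSLCs 0.30 (adjusted p = 0.632). A second tested PPARD probe, well above background on 5 arrays, gave 0.57 for eSLCs against SCs (SE 0.55, limma adjusted p = 0.441).

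The fatty acid binding proteins differed in direction. FABP5, the epidermal type, which is also known to carry ligands to PPARD, read 16970 in I2, 34360 in I9, 42720 in N2, 11180 in N7, 17220 in P1 and 20150 in P4, against 992 (SC P5) and 1278 (SC P10). Every eSLC line lay above both SC arrays, with N2 highest and N7 lowest. The log2 difference was 4.25 (SE 0.54, adjusted p = 0.00167), or 19.0-fold, and it was 4.42 in IVP-, 4.28 in NT- and 4.05 in PA-eSLCs, each called. The 3 FABP5 probes were each called higher, with log2 differences of 2.68 to 4.25, where 33.5% of all 34427 probes tested were called (17% higher and 16.4% lower). The difference was 4.24 and 4.26 within the 2 slides, and the call over all eSLCs held when any of the 8 arrays was left out. The calls in single origins were lost without SC P5 (adjusted p = 0.0537 in IVP-, 0.0636 in NT- and 0.0616 in PA-eSLCs), and the NT difference was 3.31 without N2 and 5.25 without N7.

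FABP3, the heart and muscle type, varied widely among the eSLC lines. It read 3625 in I2, 1806 in I9, 898.4 in N2, 16090 in N7, 1441 in P1 and 927.5 in P4, against 10620 (SC P5) and 2788 (SC P10). Line N7 was above both SC arrays, I2 lay between them, and the other 4 lines were below both. The NT lines were 17.9-fold apart and the SC arrays 3.81-fold, and the log2 difference of -1.28 (SE 1.13, adjusted p = 0.386) was not called. It was -1.97 without N7 (adjusted p = 0.0588) and -0.32 without SC P5 (adjusted p = 0.907). The 3 FABP3 probes gave -1.46 to -1.28 and ordered N7 first.

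FABP7, the brain type, was dim on every array. It read 38.4 in I2, 33.7 in I9, 51.6 in N2, 91.5 in N7, 68.8 in P1 and 41.6 in P4, against 86.3 and 54.2 in SC P5 and SC P10. The groups overlapped, although both IVP lines lay under both SC arrays, as did 30.7% of all genes. The log2 difference was -0.42 (SE 0.33, adjusted p = 0.334). On its second probe, N7 (56.3) was the only eSLC line above the floor.

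CD36, the scavenger receptor that takes up long-chain fatty acids, was near background on most arrays. It read 51.1 in I9, 90.2 in N2, 147.2 in N7, 16.4 in P1 and 31.7 in SC P10, and lay under the floor of 13.3 in I2, P4 and SC P5. Both NT lines and I9 lay above both SC arrays, P1 lay between them, and I2 and P4 were level with SC P5 at the floor. The log2 difference of eSLCs from SCs was 0.79 (SE 0.59, adjusted p = 0.314). In NT-eSLCs it was 2.49 (SE 0.72, adjusted p = 0.0429) and was called, and this call was lost without N2 (adjusted p = 0.102), N7 (0.156), P1 (0.0871), P4 (0.101), SC P5 (0.243) or SC P10 (0.0918), and with the slide as a block (0.0694). Within the slides the eSLC difference was 1.80 and -0.23. CD36 is also a gene of macrophages and endothelium, whose markers were called higher in eSLCs for 2 of 4 and 2 of 5 tested. The summed macrophage level was 10130 to 27970 in eSLCs (lowest in N7) against 3798 and 3564 in SCs, and the endothelial level 198.9 to 515.8 (lowest in N7) against 102.8 and 125.1, and their part in the CD36 values was not tested. The macrophage sum is almost all PTPRC (9685 to 27270 in eSLCs). CSF1R was not well above background in any eSLC line and read 25.5 and 22.4 in SCs. The endothelial calls were CLDN5 and PECAM1, and the paper counts PECAM1 among pluripotency-related genes. VWF (-0.23) and KDR (0.10) were not called. CDH5 was not well above background on any array, and TEK was not well above background in any eSLC line.

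LPL, the enzyme that releases fatty acids from the triacylglycerol of lipoproteins, read 114.5 in I2, 189.9 in I9, 201.4 in N2, 53.6 in N7, 333.9 in P1 and 43.0 in P4. In SC P5 and SC P10 it read 11.3 and 10.9, above background on those arrays but under the common floor. Each eSLC line lay above both SC arrays, and the PA lines were 7.76-fold apart, with P1 the highest line and P4 the lowest. In the series matrix, scaled per array like the scanner output, this was reversed, with P1 lowest (51.0) and P4 highest (485.7). Before that scaling the order of P1 and P4 in the matrix was the same (92.4 and 597.4). Against the floor LPL was at least 9.22-fold higher in eSLCs, with a log2 difference of 3.20 (SE 0.86, adjusted p = 0.0257). The call rests on dim signals. It was lost with a floor of 50 (1.33, adjusted p = 0.318), with the mean of the LPL probes (1.20, adjusted p = 0.0644) and without I2 (adjusted p = 0.0615), I9 (0.0632), N2 (0.0596), SC P5 (0.169) or SC P10 (0.163), and a second LPL probe, at most 20.5 on any array, gave 0.12 (SE 0.19).

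PLIN2, the perilipin that coats lipid droplets in most cell types, fell. It read 281.9 in I2, 271.6 in I9, 252.9 in N2, 782.4 in N7, 512.7 in P1 and 395.2 in P4, against 2275 (SC P5) and 2314 (SC P10). Every eSLC line lay below both SC arrays, which differed by 1.02-fold, and N7 was the highest line here. In the series matrix, scaled per array like the scanner output, N7 was the lowest of the 6 (195, with P4 highest at 961). Before that scaling, N2 was lowest in the matrix (660.5, with 873.1 in N7 and P4 highest at 1182). In the scanner output the log2 difference was -2.59 (SE 0.42, adjusted p = 0.00406), so that PLIN2 was 6.02-fold lower. It was -3.05 in IVP-, -2.37 in NT- and -2.35 in PA-eSLCs, each called. It was -2.54 and -2.64 within the slides. With a single SC array the difference barely moved (-2.60 without SC P5, -2.58 without SC P10) but was no longer called (adjusted p = 0.0577 and 0.0554). The calls in single origins were lost in the same way, and that of PA-eSLCs also without P1 (adjusted p = 0.0617) or P4 (0.0914).

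SCD, the stearoyl-CoA desaturase that makes oleic from stearic acid, read 134500 in I2, 94590 in I9, 119500 in N2, 66420 in N7, 165900 in P1 and 122700 in P4, against 55390 (SC P5) and 17750 (SC P10). Each eSLC line lay above both SC arrays, N7 by the least, and the SC arrays were themselves 3.12-fold apart. The log2 difference was 1.85 (SE 0.48, adjusted p = 0.0236), or 3.60-fold. All 7 SCD probes were called higher, from 1.75 to 3.51. The difference was 0.77 within the slide of SC P5 and 2.92 within that of SC P10, and it was no longer called without I2 (adjusted p = 0.0663), N2 (0.0586), P1 (0.0648), P4 (0.0624) or SC P10 (1.03, adjusted p = 0.154).

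**Figure D3:**
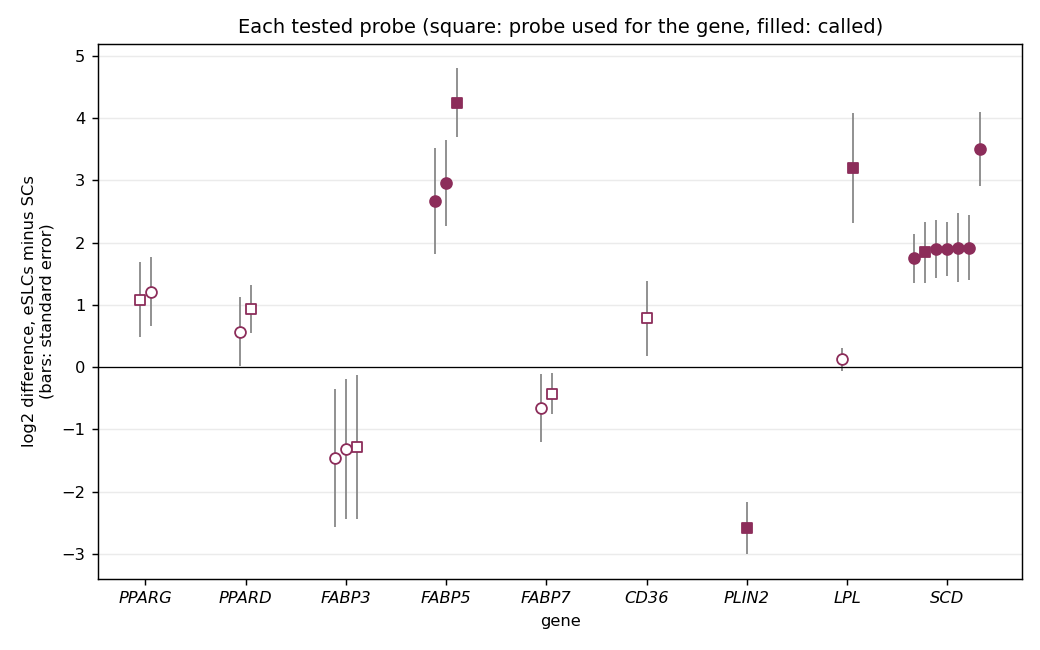
The log2 difference of eSLCs from SCs, with its standard error, is plotted for each tested probe of the 9 genes. Squares mark the probe used for the gene and filled symbols mark called probes. The 7 SCD and 3 FABP5 probes are all filled and above 0. The tested LPL probes differ in size, and the lower value comes from a probe that lay under the floor on most arrays.

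Origin by origin, 3 of the 9 genes were called against SCs in each kind of line. In IVP-eSLCs these were FABP5 and LPL (higher) and PLIN2 (lower), where 17.7% of all genes were called higher and 14.6% lower. In NT-eSLCs they were FABP5 and CD36 (higher) and PLIN2 (lower), with 15.8% and 13.9% of all genes. In PA-eSLCs they were FABP5 and SCD (higher) and PLIN2 (lower), with 20.3% and 14.9% of all genes. The calls of LPL in IVP-eSLCs and of SCD in PA-eSLCs did not hold with the slide as a block (adjusted p = 0.0653 and 0.0575). These comparisons share the SC arrays. LPL differed from SCs by 2.97 in NT-eSLCs (adjusted p = 0.0763) and 3.17 in PA-eSLCs (adjusted p = 0.0552), beside 3.47 in IVP-eSLCs (adjusted p = 0.0457). Single arrays moved these LPL values in the scanner output. They became 1.70 without P1 and 4.65 without P4 in PA-eSLCs, and 2.01 without N2 and 3.92 without N7 in NT-eSLCs. SCD differed from SCs by 1.85 in IVP-eSLCs (adjusted p = 0.0537) and 1.51 in NT-eSLCs (adjusted p = 0.0997) beside 2.19 in PA-eSLCs (adjusted p = 0.0297).

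**Figure D4:**
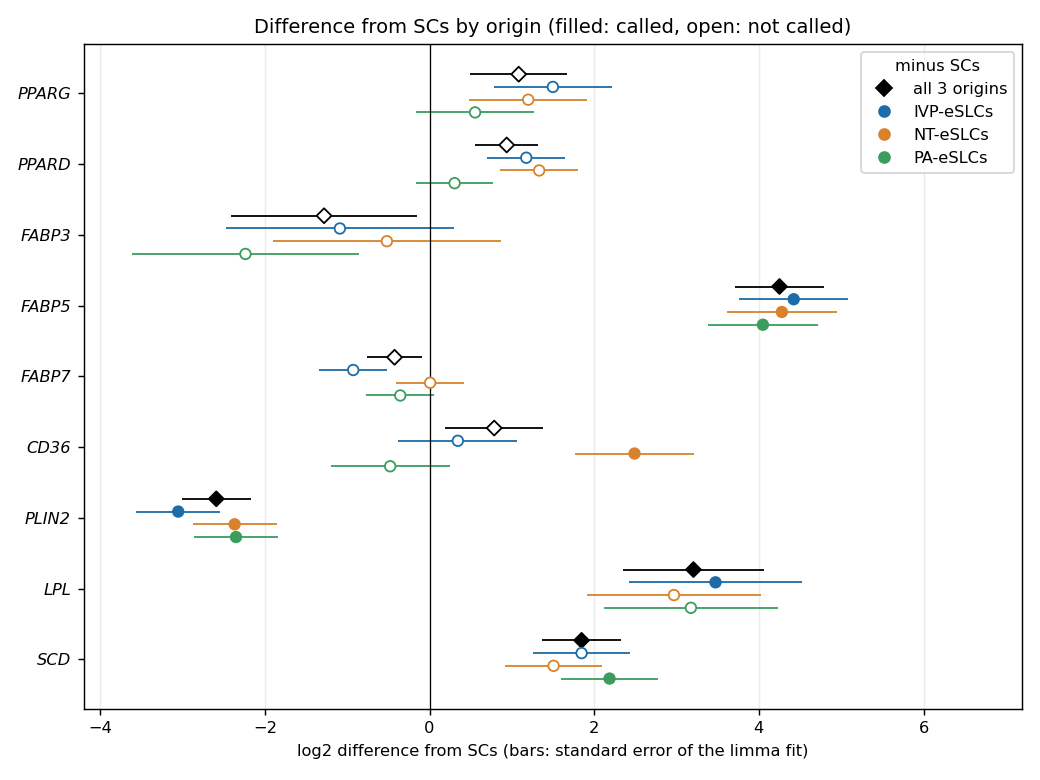
The log2 difference from SCs is plotted for each gene, over the 3 origins together (diamonds) and for each origin (circles), with the standard error of the limma fit, and filled symbols mark called differences. FABP5 and PLIN2 are filled in all 3 origins, while CD36 is filled in NT-eSLCs alone.

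Between origins, none of the 9 genes was called. Over all genes, limma called 0% when NT- or PA-eSLCs were set against IVP-eSLCs. An unadjusted p under 0.05 was found for 306 genes (NT, 2.79% of those tested) and 568 genes (PA, 5.18%). CD36 was the one member of the 9 under that value, with a log2 difference of 2.15 between NT- and IVP-eSLCs (SE 0.72, unadjusted p = 0.0254, adjusted p = 1). Both IVP arrays lay on one slide and both PA arrays on the other, while the NT and SC arrays spanned both. With the slide as a block 0 genes were called between PA- and IVP-eSLCs, as without it. That fit takes the slide effect from the NT and SC arrays alone, where slide changed together with line or passage. It therefore separates slide from origin only weakly.

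The 9 genes varied more among the 6 eSLC lines than the median gene. The highest line exceeded the lowest by 17.9-fold for FABP3, at least 11.1-fold for CD36 (under the floor in I2 and P4), 7.76-fold for LPL, 4.35-fold for PPARG, 4.19-fold for PPARD, 3.82-fold for FABP5, 3.09-fold for PLIN2, 2.71-fold for FABP7 and 2.50-fold for SCD, beside a median of 1.91-fold over all genes tested. In the scanner output FABP3, FABP7, CD36 and PLIN2 were highest in N7, the line with high HNF4A, APOA1 and GATA4, and FABP5 and SCD were lowest there. In the series matrix, scaled per array like the scanner output, N7 was again highest for FABP3 (22730) and CD36 (216.9). It was lowest there for PLIN2 (195), and FABP7 was highest in N2 (204.9, with 59.8 in N7). FABP5 was lowest in P1 (18860, with 19270 in N7) and SCD in N2 (84450, with 93110 in N7). PPARG and PPARD were lowest in P1 in the scanner output and in N7 in the scaled matrix (562.9 and 1253). Several of these matrix ranks depended on the scaling. Before it, the lowest lines were N2 for PLIN2 (660.5), I9 for PPARG (2318), and P4 for PPARD (1865) and FABP5 (24000). N7 then read 873.1, 2520, 5606 and 86240 for these genes. FABP7 was 278 in N2 and 267.5 in N7. N7 stayed highest for FABP3 (101700) and CD36 (970.9), and N2 lowest for SCD (114600). The part of the N7 markers in these levels was not tested.

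Over the 6 lines, in the scanner output, PPARG followed FABP5 (Pearson r = 0.90) and PPARD (r = 0.87) and ran against PLIN2 (r = -0.78), while its r with SCD was -0.15 and with LPL 0.18. Over the 8 arrays the tested genes most like PPARG by Pearson r of log2 signals were TGM5 (r = 0.98), TP53I11 (r = 0.98), SCNN1G (r = 0.97), CNPY2 (r = 0.97) and HAND1 (r = 0.97). Of the 10958 genes, PPARD ranked 81 (r = 0.91) and FABP5 ranked 588 (r = 0.74). TGM5 encodes an epidermal transglutaminase, SCNN1G an epithelial sodium channel subunit, and HAND1 a transcription factor of trophoblast and heart. HAND1 read 3472, 8929, 8218, 1666, 2288 and 2980 in I2, I9, N2, N7, P1 and P4 against 2024 and 1228 in SC P5 and SC P10. These correlations rest on few points that share normalization and slides. Lines I9 and N2, which read highest for PPARG, were also the most alike of all pairs of arrays (r = 0.994). In both SC arrays TGM5 (5.09 and 4.01) and SCNN1G (5.27 and 8.29) lay under the floor of 13.3 and were set to it.

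Around these genes, 110 further genes of lipid handling were listed in 9 groups, of which 93 had a probe and 87 were tested. Of these, 20 (23%) were called higher and 22 (25.3%) lower in eSLCs, with a median log2 difference of 0.03, beside 19.7%, 15.7% and 0.23 over all genes tested. Of adipocyte markers, 3 of 4 tested were called lower in the same lines (PLIN1, FABP4 and CIDEC, which are also among the listed genes). Their summed level was 59.3 to 135 in eSLCs against 1415 and 1777 in SCs. The sum in SCs is mostly FABP4 (1179 and 1464), and LIPE was level (0.04, not called).

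Among the receptors and partners of PPARG, 1 of 4 tested genes was called lower and none higher. NR1H3 (the liver X receptor alpha) fell by 2.04 on the log2 scale, whereas RXRB, a possible partner in place of RXRA, differed by -0.60 (adjusted p = 0.0904). Of 12 cofactors and adipogenic transcription factors, 10 were not called, among them CEBPA, the partner of PPARG in adipocytes, at 0.01. EBF1, an early factor of fat cell commitment, fell by 5.05 and KLF15 rose by 2.08, although KLF15 was called in no single origin, lost its call in 10 of 20 alternative settings and ran from 1.14 (without SC P10) to 3.02 (without SC P5).

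FABP4, the adipocyte binding protein and a classical PPARG target, contrasted with FABP5. It read 1179 and 1464 in SC P5 and SC P10 and was not well above background in any eSLC line, so that it was at least 98.9-fold lower in eSLCs. FABP2, the intestinal type, was likewise at least 2.85-fold lower. In all, 2 of 4 other tested binding proteins were called lower and none higher.

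Of 11 tested genes of fatty acid uptake and activation beside CD36, 5 were called higher and 3 lower, and the acyl-CoA synthetases went both ways. ACSL6 rose by 8.13 and ACSL3 by 3.45, while ACSL5 fell by 4.86 and ACSL1 by 3.87. SLC27A2, a very long-chain fatty acid transporter, read 350.4 to 1661 in eSLCs and was at least 46.1-fold higher there, as neither SC array had it well above background. CAV1, the caveola protein, read 77490 and 82010 in SCs and was well above background in 2 of 6 eSLC lines (log2 difference -12.2).

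In lipoprotein lipolysis and uptake, LPL and LIPC (hepatic lipase, at least 15.5-fold higher) were called higher, and 4 of 6 tested genes beside LPL were called lower. ANGPTL4, a PPAR target that inhibits LPL, fell by 5.28, with 300.3 and 1146 in SC P5 and SC P10 and at most 20.7 in eSLCs. VLDLR, a lipoprotein receptor, fell by 3.45.

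On lipid droplets, PLIN2 and PLIN3 moved in opposite directions. PLIN3, the exchangeable perilipin TIP47, read 17380 to 31430 in eSLCs against 1302 and 1958 in SCs and rose by 3.94. Likewise CIDEA rose by 3.71 and CIDEC fell by 3.24, and both promote droplet fusion. MGLL, which cleaves monoacylglycerol, rose by 8.67 (406-fold), PLIN1 fell by 1.54 and FITM2 was also called lower, so that of 13 tested genes beside PLIN2, 4 were called higher and 3 lower.

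In desaturation and elongation, SCD contrasted with SCD5, its paralog, which read 2557 and 2366 in SCs and 6.77 to 101 in eSLCs and fell by 6.24. ELOVL6, which elongates palmitate, rose by 5.25 and FADS2, the delta-6 desaturase, by 1.55, ELOVL2 was at least 20.4-fold higher, and ELOVL4 fell by 4.39 and ELOVL7 fell by 2.72. The calls of ELOVL7 and FADS2 were lost in 12 and 9 of 20 alternative settings, and FADS2 ran from 0.95 (without SC P10) to 2.15 (without SC P5). In triacylglycerol synthesis 4 of 10 tested genes were called higher and none lower, with GPAT3 at 3.84, AGPAT3 at 2.23 and MOGAT1 at least 151-fold higher. Of 18 tested oxidation genes, 2 were called higher, among them the peroxisomal thiolase ACAA1 (1.71), and 5 lower, among them the mitochondrial ACADL (-2.15), ACADVL (-1.63) and ETFDH (-1.34).

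**Figure D5:**
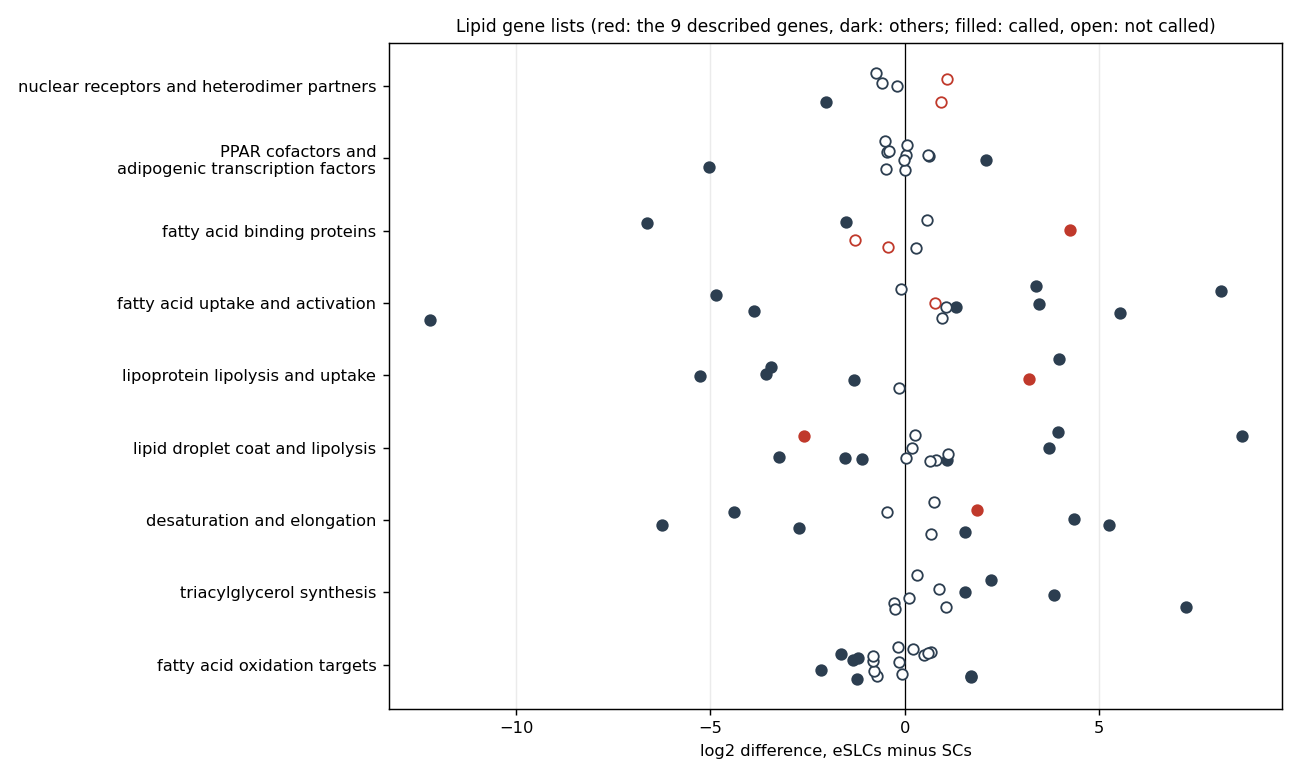
Each point is a tested gene of the 9 groups of lipid genes, placed by its log2 difference of eSLCs from SCs. Red points are the genes described first, dark points the others, and filled points were called. Most groups have called genes on both sides of 0, while the triacylglycerol synthesis group has no called gene on the lower side.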

How the data were processed

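RNA of 8 cultures was measured on 8 single-colour Agilent arrays. The authors scanned the arrays and quantified spots with Feature Extraction (11.5.1.1 per the file headers), and the deposited scanner files hold linear intensity values per spot. The authors normalized with GeneSpring, and the deposited series matrix holds processed intensity values whose centring and scale are not given in the sources used here. Its column medians ran from 118.7 to 500.8, and each column followed its scanner file (Spearman 0.96 to 0.98).

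From the files, the background-subtracted signal was scaled to a 75th percentile of 1000 per array, spots of a probe were averaged after leaving out control spots and 1 to 11 outlier spots per array, values under 13.3 were raised to that floor, and log2 was taken. The processed signal column was not used as the main value because it followed the background-subtracted signal in 2 files alone (Spearman 0.973 and 0.971, and 0.161 to 0.216 in the other 6). Accessions were matched without versions to RefSeq (ARS-UCD2.0), which named 26743 probes of 12603 genes. As the files use another build, no coordinates are given. A gene is its brightest probe, and the 10958 genes tested had to be well above background throughout 1 or more of the groups. Groups were compared with limma 3.58.1 in R 4.3.3 (a mean per group over all 8 arrays, eBayes, Benjamini-Hochberg over all genes tested). In simulated data on 10950 genes for eSLCs against SCs, 68.5% of 200 genes changed 4-fold were called, none in the wrong direction, and 4 unchanged genes were called. These 200 genes are a far smaller share than the 35.4% called in the data, so these rates need not hold there. The number of arrays limits the precision.

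Where a group was not well above background, or lay under the floor, on all its arrays, the fold against the floor is a bound ("at least"). All genes of the set are named, each gene with a probe is described by its brightest probe, and further probes are given for some genes. Of the lipid lists, up to 3 other called genes with the largest rise and 3 with the largest fall per list are named, apart from some that are not reported here, and for PPARG the 5 tested genes with the highest r. RXRB, CEBPA and the pluripotency genes were named after their values were seen. The genes, lists and markers were chosen with earlier results of these data known. Alternatives were another scaling, quantile normalization, normexp (on the median signal and background columns), the processed signal, the series matrix, other filters, floor and probe rules, the SC arrays as 1 sample, the slide as a block, the methods' t-test and leaving out each array. The floor of 50, the fit of single probes, the within-slide values and PA- against NT-eSLCs were chosen after seeing the data. Figures were drawn with matplotlib.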

Additional observations from a re-analysis of the deposited data

Results flagged for a closer look

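CD36 was singled out because both NT-eSLC lines lay above the mean of the SC arrays and both PA-eSLC lines below it. The log2 difference of PA- from NT-eSLCs was -2.967 (SE 0.72, unadjusted p = 0.00647, adjusted p = 0.502, limma), so the difference between the origins was not called. CD36 read 90.2 and 147.2 in N2 and N7, and 16.4 in P1, with P4 under the floor of 13.3. N2, P1 and P4 lay on one slide and N7 on the other. In none of the 9 genes did the highest or lowest of the 6 eSLC lines pass Dixon's criterion for an outlier.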

How the results depend on the processing

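Over 20 settings, FABP5 was called higher in 19, PLIN2 lower in 16, SCD higher in 13 and LPL higher in 9. Of 536 values for the 9 genes under alternatives, 429 kept their direction and side of the threshold, 88 lost the call, 12 gained one and 7 turned. Of 690 values for the named lipid genes, 608, 76, 0 and 6 did so. Leaving out single arrays gave 1 to 4 of the 9 genes called higher and 0 to 1 lower. FABP5 then ran from 3.93 to 4.57, PLIN2 from -2.86 to -2.32, LPL from 2.71 to 3.70, SCD from 1.03 to 2.67 and PPARG from 0.81 to 1.36. CD36 turned in IVP-eSLCs to -0.63 without I9 and -0.28 without SC P5, and in PA-eSLCs to 0.15 without SC P10, within ranges of -0.63 to 1.32 and -1.11 to 0.15. With an SC array left out, the lone one is assumed to vary like the other groups. The cause of these changes was not tested.

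LPL lost its call with normexp (1.68), with no filter (3.20), with the mean of its probes (1.20), with the SC arrays as 1 sample (3.20) and with a floor of 50 (1.33). SCD lost it with no filter (1.85), which left 1 gene of the 9 called higher, and PLIN2 with the SC arrays as 1 sample (-2.59), which left 0 called lower. With normexp CD36 turned to -0.30 in IVP- and 0.055 in PA-eSLCs. In the series matrix PPARG in IVP-eSLCs turned to -0.0050. With the processed signal column, which did not follow the other signals in 6 files, 0 of the 9 genes were called in either direction (FABP5 3.42, PLIN2 -2.76, LPL 2.80, SCD 4.37), and FABP3 (2.33), EBF1 (0.28), FABP4 (1.44), CAV1 (0.17), FITM2 (0.30), ANGPTL4 (1.25) and NR1H3 (2.20) turned.

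Over all genes, the numbers called higher and lower against SCs were 2155 and 1719 for eSLCs, 1938 and 1603 for IVP-, 1735 and 1528 for NT- and 2229 and 1633 for PA-eSLCs. With the SC arrays as 1 sample they were 1342 and 1126, 1060 and 959, 942 and 864, and 1304 and 1000. With the processed signal column they were 276 and 188, 142 and 94, 203 and 73, and 133 and 91. After Benjamini-Hochberg adjustment, the methods' t-test gave 445 and 439 for IVP-, 158 and 153 for NT- and 940 and 726 for PA-eSLCs, and 1 gene higher in PA- than in IVP-eSLCs. The series matrix gave 1358 higher for eSLCs, 1019 for IVP- and 967 for NT-eSLCs, 1087 higher and 1003 lower for PA-eSLCs, 93 higher and 5 lower in NT- than in IVP-eSLCs, and 3 lower in PA- than in IVP-eSLCs. Leaving out single arrays gave 1279 to 2196 higher and 1096 to 1735 lower for eSLCs, 1083 to 2046 and 967 to 1677 for IVP-, 881 to 1641 and 863 to 1433 for NT-, and 1257 to 2349 and 978 to 1698 for PA-eSLCs. Between origins it gave 0 to 131 and 0 to 21 (NT against IVP) and 0 to 1 in both directions (PA against IVP). The median difference of all genes was 0.23, and 0.41 with the processed signal column, 0.06 with the series matrix, 0.12 with quantile normalization, 0.11 with a floor of 50 and 0.11 with no filter.

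No paired analysis was possible because the labels give every source the same replicate number, so no numbers tie lines to SC arrays. Signals near background limit CD36, FABP7, LPL in SCs and the second probes of PPARD, LPL and CD36.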

Other observations

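The deposited series matrix and the scanner output disagreed for some probes of these genes. Measured from the median log2 ratio of the tables on each array, 7 of the 26 probes deviated by over 1 on at least 1 array where they were well above background. They include the probe used for PPARG (up to 2.43), PLIN2 (2.47), LPL (3.71), FABP7 (2.40) and PPARD (1.20), while the probes used for FABP5, FABP3, CD36 and SCD stayed within 0.319. Before scaling, the matrix values of the PPARG probe were within 1.01 to 1.05-fold of each other in each pair of arrays of a group, where the scanner output gave 1.37 to 3.16-fold.

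In the matrix, scaled to a 75th percentile of 1000, PLIN2 read 195 to 961 in the eSLC lines and 3013 and 4751 in the SCs, and LPL 51.0 to 485.7 against 12.5 and 20.0, so the groups stayed apart in both tables. One FABP3 probe, A_73_111582, read 318.9 in N7 in the matrix and 11130 in the scanner output, while the probe used for FABP3 read 22730 and 16090 there.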
